A study of Arabidopsis thaliana with 12 samples.

Results

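The genes described here encode the early enzymes of tetrapyrrole synthesis in Arabidopsis and FLU, the protein that holds the pathway back in the dark. The set was chosen by locus code and not by any measured value, though with earlier results of these data known. It holds 10 nuclear genes of the 33557 listed in each expression table, and all 10 were found and tested in each of the 4 tables. They are HEMA1 (AT1G58290), HEMA2 (AT1G09940), GSA1 (AT5G63570), GSA2 (AT3G48730), HEMB1 (AT1G69740), HEMC (AT5G08280), HEMD (AT2G26540), HEME1 (AT3G14930), HEME2 (AT2G40490) and FLU (AT3G14110).

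RNA was sequenced from whole seedlings of the sfps-2 mutant, a knockout of the splicing factor SFPS in the Col-0 background, and of Col-0 wild type (WT). All seedlings were 4 days old, were grown in the dark on medium without sucrose after a pulse of white light for germination, and were then moved to red light of 7 µmol m-2 s-1 or to further darkness for 3 h. The 4 groups are sfps-2 after red light, WT after red light, sfps-2 in the dark and WT in the dark, with 3 libraries in each of them. Whether the libraries of a group came from separate sowings is not given in the sources used here, so tests measure only the spread between these libraries. A single mutant allele was used.

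All tetrapyrroles of the plastid, among them chlorophyll, heme and the phytochrome chromophore, start from 5-aminolevulinic acid, which is made from glutamate bound to its tRNA. The enzymes encoded by HEMA and GSA make this precursor, and those encoded by HEMB1, HEMC, HEMD and HEME join and close it into the ring of uroporphyrinogen and convert that to coproporphyrinogen. In darkness flowering plants cannot reduce protochlorophyllide, and FLU protein binds glutamyl-tRNA reductase, the HEMA product, and keeps precursor supply low. Red light perceived by phytochrome is known to switch on HEMA1 and other genes of chlorophyll synthesis as seedlings turn green.

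Expression is given as FPKM, the number of fragments scaled for transcript length and library size, which can be set side by side between genes. The tables hold 1 FPKM value per group, so no value per library stands beside a level. Each comparison has its own table, scaled separately, so the level of a group differs slightly between comparisons. The error of a log2 change was taken from the authors' Cuffdiff statistic and is given as a 95% interval. Calls needed a q below 0.05 in the authors' table together with a change of 1.5-fold or more. SFPS stood at 1.93 FPKM in sfps-2 and 7.90 FPKM in WT after red light, and at 1.83 FPKM in sfps-2 and 8.04 FPKM in WT in the dark, so its level followed the labels. The sum of 4 green tissue marker genes, of which all 4 were called higher after red light in both genotypes, was 6520 FPKM in sfps-2 after red light against 1325 FPKM in the dark, and 6241 FPKM in WT after red light against 793 FPKM in the dark. Library totals are not given in the sources used here. The authors list 581 splicing bins as changed in comparisons that together cover all 12 libraries. In these bins the sum of junction reads per library lay between 288640 and 398115, or within 1.38-fold.

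The comparison of red light with darkness asks how 3 h of light changed the pathway's transcripts in each genotype. In sfps-2, 5 of the 10 genes were called higher and 0 lower, against a background of 12.4% higher and 8.97% lower among 20970 genes tested. In WT, 7 of the 10 were called higher and 0 lower, against 14.9% higher and 5.85% lower among 20635 genes tested. The median log2 change of the 10 genes was 0.74 in sfps-2 and 1.16 in WT, against -0.01 and 0.01 over all genes tested in those 2 comparisons. The log2 change was above 0 for 8 of the 10 in sfps-2 and for 10 in WT, against 48.5% and 50.7% of all genes tested. HEMA1, GSA2, HEMC, HEME1 and HEME2 rose in both genotypes, so the light-called genes span precursor supply and ring formation. Of the marker lists, all 4 root hair genes were called higher after red light in sfps-2, with a sum of 10.9 FPKM against 4.68 FPKM in the dark, and 0 of 4 were called in WT, at 3.36 FPKM after red light against 4.11 FPKM in the dark. Of 3 seed genes 1 was called higher and 1 lower in sfps-2, with a sum of 334 FPKM after red light against 248 FPKM in the dark, and 2 were called higher in WT, at 75.9 FPKM after red light against 45.6 FPKM in the dark. Their part in the light response of the 10 genes was not tested.

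HEMA1 encodes the main glutamyl-tRNA reductase of green tissue and was the most abundant of the 10 transcripts in every group. It stood at 231 FPKM in sfps-2 and 259 FPKM in WT after red light, against 51.2 FPKM in sfps-2 and 44.3 FPKM in WT in the dark. The red light levels lay above 97.4% of tested genes in sfps-2 and above 97.6% in WT, and the log2 change was 2.18 (95% interval 1.83 to 2.53, q = 3.82e-04) in sfps-2 and 2.55 (2.29 to 2.80, q = 2.92e-04) in WT. These q values are the lowest the authors' tables hold, because their p-values stop at 5e-05. HEMA2, the second reductase gene, known mainly from roots and stress, behaved otherwise. It stood at 15.7 FPKM in sfps-2 and 17.03 FPKM in WT after red light, against 21.0 FPKM in sfps-2 and 16.6 FPKM in WT in the dark. Its log2 change was -0.42 (-0.75 to -0.09, q = 0.0467) in sfps-2, where 26.9% of genes had a q under 0.05, short of a 1.5-fold change, and 0.03 (-0.23 to 0.29, q = 0.888) in WT.

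GSA1 and GSA2 encode glutamate-1-semialdehyde aminotransferase, which completes 5-aminolevulinic acid. GSA2 stood at 40.6 FPKM in sfps-2 and 43.3 FPKM in WT after red light, against 17.6 FPKM in sfps-2 and 12.5 FPKM in WT in the dark. It rose by a log2 change of 1.21 (0.88 to 1.54) in sfps-2 and 1.80 (1.53 to 2.06) in WT. GSA1 was not called in either genotype, with 28.4 FPKM in sfps-2 and 33.7 FPKM in WT after red light against 26.3 FPKM in sfps-2 and 24.1 FPKM in WT in the dark. In WT its q was 2.92e-04, where 33.2% of genes had a q under 0.05, but the log2 change of 0.49 (0.24 to 0.74) was under 1.5-fold.

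The genes of ring formation fell into a steeper and a flatter group. HEMC, which encodes porphobilinogen deaminase, stood at 132 FPKM in sfps-2 and 140 FPKM in WT after red light, against 51.0 FPKM in sfps-2 and 38.2 FPKM in WT in the dark. Its log2 change was 1.37 (1.04 to 1.71) in sfps-2 and 1.87 (1.62 to 2.12) in WT. HEME1 and HEME2 encode uroporphyrinogen decarboxylase, the last enzyme of the set. HEME1 stood at 66.5 FPKM in sfps-2 and 65.4 FPKM in WT after red light, against 24.9 FPKM in sfps-2 and 17.7 FPKM in WT in the dark, a log2 change of 1.42 (1.09 to 1.75) and 1.88 (1.62 to 2.14). HEME2 stood at 106 FPKM in sfps-2 and 117 FPKM in WT after red light, against 48.1 FPKM in sfps-2 and 37.1 FPKM in WT in the dark, a log2 change of 1.14 (0.82 to 1.46) and 1.66 (1.41 to 1.90). All 3 of these genes were called in both genotypes.

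HEMB1, which encodes 5-aminolevulinate dehydratase, and HEMD, which encodes uroporphyrinogen III synthase, were called in WT and not in sfps-2. HEMB1 stood at 56.9 FPKM in sfps-2 and 55.0 FPKM in WT after red light, against 44.9 FPKM in sfps-2 and 34.6 FPKM in WT in the dark. Its log2 change was 0.34 (0.03 to 0.66, q = 0.103) in sfps-2 and 0.67 (0.43 to 0.91, q = 2.92e-04) in WT. HEMD had the lowest level of the set in every group, at 8.42 FPKM in sfps-2 and 9.05 FPKM in WT after red light against 6.97 FPKM in sfps-2 and 5.70 FPKM in WT in the dark. Its log2 change was 0.27 (-0.15 to 0.69, q = 0.393) in sfps-2 and 0.67 (0.32 to 1.01, q = 0.00106) in WT. For both genes the WT call is lost at a threshold of 2-fold, and HEMD also falls under 1.5-fold, at a log2 change of 0.58, when 1 FPKM is added to both groups.

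FLU was not called in any comparison. It stood at 47.7 FPKM in sfps-2 and 46.6 FPKM in WT after red light, against 49.7 FPKM in sfps-2 and 40.2 FPKM in WT in the dark. The log2 change after red light was -0.06 (-0.87 to 0.75, q = 0.948) in sfps-2 and 0.21 (-0.46 to 0.88, q = 0.686) in WT. These intervals are the widest of the set, and changes within them cannot be told from 0. In the expression tables FLU shares its locus with AT3G14100, a neighbour on the opposite strand at 101 FPKM in sfps-2 and 103 FPKM in WT after red light and 123 FPKM in sfps-2 and 131 FPKM in WT in the dark. The annotated genes overlap by 45 bases, the library kit marks strand, the strand setting of the counting is not given in the sources used here, and its part in the FLU value was not tested. HEMC shares its locus in the same way with AT5G08270, which lay between 1.95 and 2.42 FPKM in the 4 groups.

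**Figure D1:**
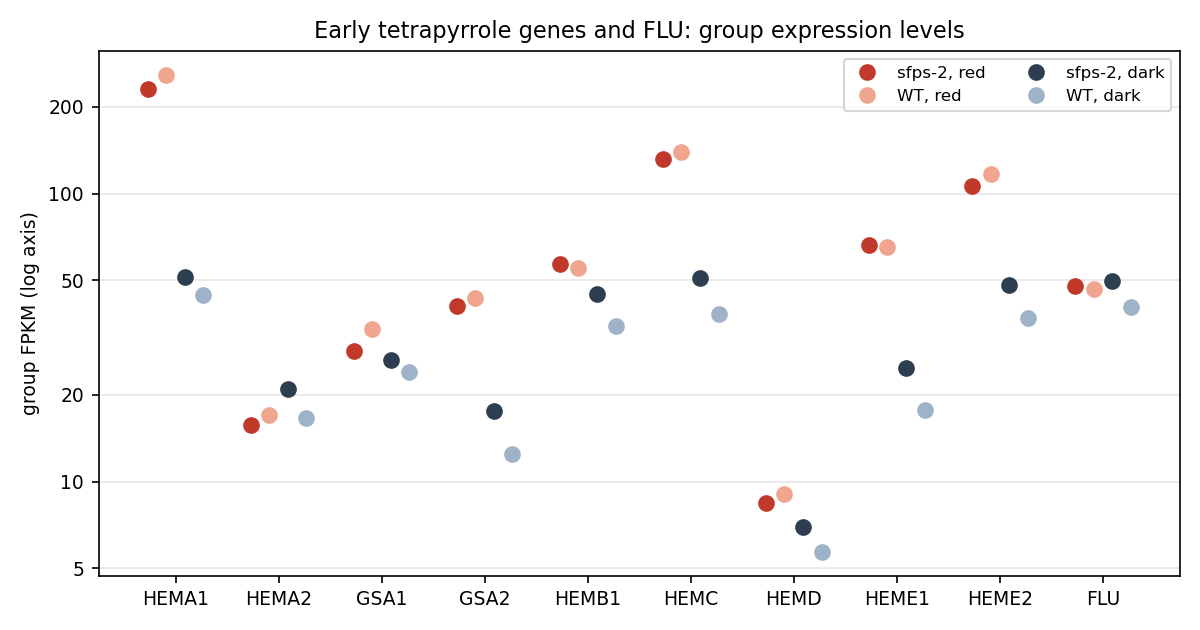
Group FPKM on a log axis for the 10 genes, 1 point for each of the 4 groups (sfps-2 red, WT red, sfps-2 dark, WT dark). HEMA1 is highest in every group, at 231 FPKM in sfps-2 and 259 FPKM in WT after red light, and HEMD lowest, while HEMA2 is at 15.7 FPKM after red light and 21.0 FPKM in the dark in sfps-2, and at 17.03 and 16.6 FPKM in WT.

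The 3 paralogue pairs divided differently between their members. HEMA1 made up 93.6% of the summed HEMA FPKM in sfps-2 and 93.8% in WT after red light, against 70.9% in sfps-2 and 72.7% in WT in the dark. GSA2 made up 58.8% of the summed GSA FPKM in sfps-2 and 56.2% in WT after red light, against 40.1% in sfps-2 and 34.1% in WT in the dark, so it was the more abundant GSA transcript only after red light. HEME1 made up 38.5% of the summed HEME FPKM in sfps-2 and 35.9% in WT after red light, against 34.1% in sfps-2 and 32.3% in WT in the dark, and HEME2 stayed the more abundant of the pair.

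The difference in light response within each pair was tested in each genotype with a normal test on the Cuffdiff errors, adjusted by Benjamini-Hochberg over the 6 tests, a test chosen after the values were seen. The log2 change of HEMA1 exceeded that of HEMA2 by 2.59 (95% interval 2.11 to 3.07) in sfps-2 and by 2.51 (2.15 to 2.88) in WT. For GSA2 over GSA1 the excess was 1.096 (0.64 to 1.55) in sfps-2 and 1.31 (0.94 to 1.67) in WT. Between HEME1 and HEME2 the difference of 0.28 (-0.18 to 0.73) in sfps-2 and 0.22 (-0.13 to 0.58) in WT did not pass (adjusted p = 0.240 in both genotypes). Levels rest on the authors' assignment of reads between paralogues, which the files do not show.

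**Figure D2:**
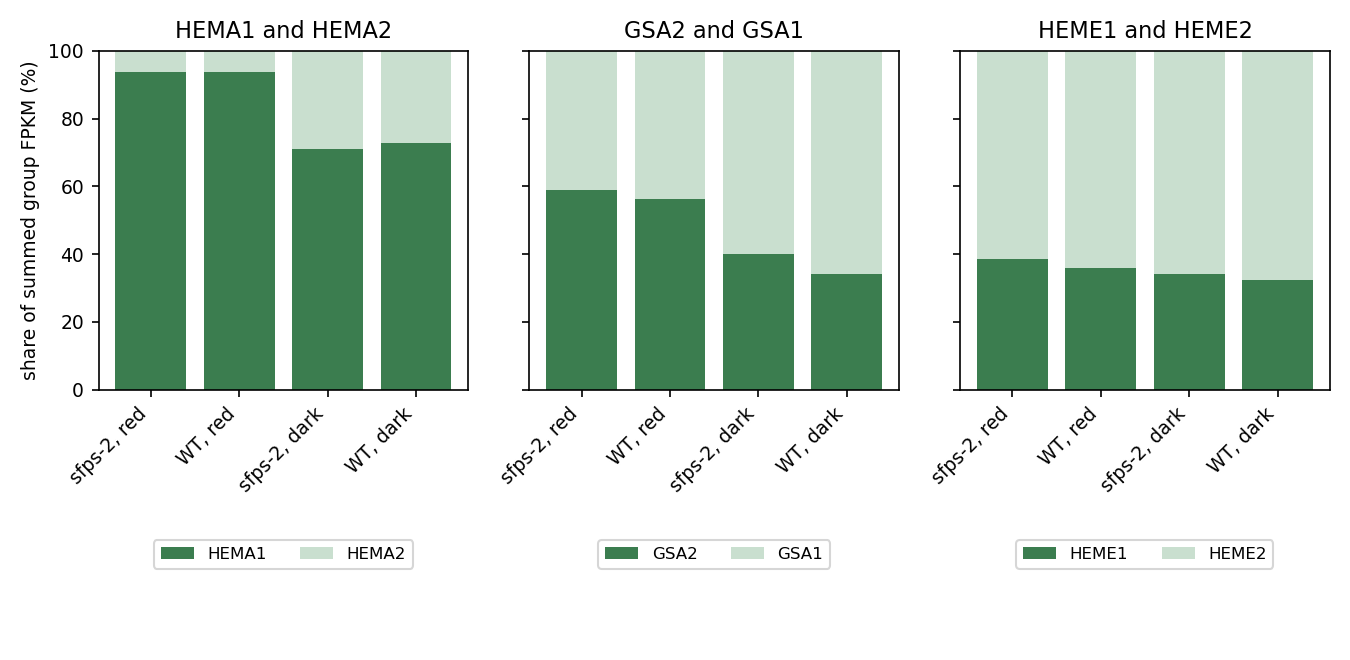
Stacked bars of the share of each paralogue in the summed group FPKM of its pair (%), for sfps-2 red, WT red, sfps-2 dark and WT dark. The HEMA1 share is 93.6% and 93.8% after red light against 70.9% and 72.7% in the dark, the GSA2 share is above 50% after red light only, and the HEME1 share stays between 32.3% and 38.5%.

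The comparison of sfps-2 with WT asks what loss of SFPS does to these transcripts within each light condition. After red light 0 of the 10 genes were called, where the background was 3.28% higher and 3.23% lower. A q under 0.05 at any fold was found for 0 of the 10 in red light, against 7.93% of genes tested. The log2 changes in red light ran between -0.29 for GSA1 and 0.003 for HEMB1, with 9 of 10 below 0 and a median of -0.14, and 47.2% of all genes tested lay above 0. For HEME1 and FLU the sign depended on the scaling: -0.02 and -0.01 in the comparison's own table, 0.02 and 0.03 from the group values of the light tables. An unadjusted p under 0.05 was found for 1 of the 10 genes after red light, where 17.3% of all genes tested had 1.

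In the dark 0 of the 10 genes were called as well, where the background was 5.22% higher and 1.99% lower. All 10 log2 changes were above 0, between 0.07 for GSA1 and 0.44 for GSA2, with a median of 0.30, and 55.6% of all genes tested lay above 0 with a median of 0.04. HEME1 (0.43, 95% interval 0.14 to 0.73, q = 0.0498) was under a q of 0.05 without reaching 1.5-fold, where 10.1% of genes had such a q, and GSA2 (0.44, 0.13 to 0.74) had a q of 0.0522. An unadjusted p under 0.05 was found for 5 of the 10, namely GSA2, HEMB1, HEMC, HEME1 and HEME2, where 20.2% of all genes tested had 1. The dark groups also differed in marker genes: the sum of 3 seed genes was 243 FPKM in sfps-2 against 46.5 FPKM in WT, all 3 called higher, and PORA, a marker of etiolated cotyledons, was at 277 FPKM in sfps-2 against 176 FPKM in WT. Of the 4 green tissue markers 1 was called higher in the dark, RBCS1A, a Rubisco small subunit gene, at 1146 FPKM in sfps-2 against 690 FPKM in WT. Another was called lower in the dark, LHCB1.1, an antenna protein gene, at 3.07 FPKM in sfps-2 against 7.49 FPKM in WT. None of these 4 was called after red light, where the seed sum was 326 FPKM in sfps-2 against 76.7 FPKM in WT with 2 of 3 called higher, and the sum of 4 root hair genes was 10.6 FPKM in sfps-2 against 3.39 FPKM in WT with 4 of 4 called higher. The part of these differences in the values of the 10 genes was not tested, and in whole seedlings fewer cells of a type and less RNA per cell cannot be told apart.

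**Figure D3:**
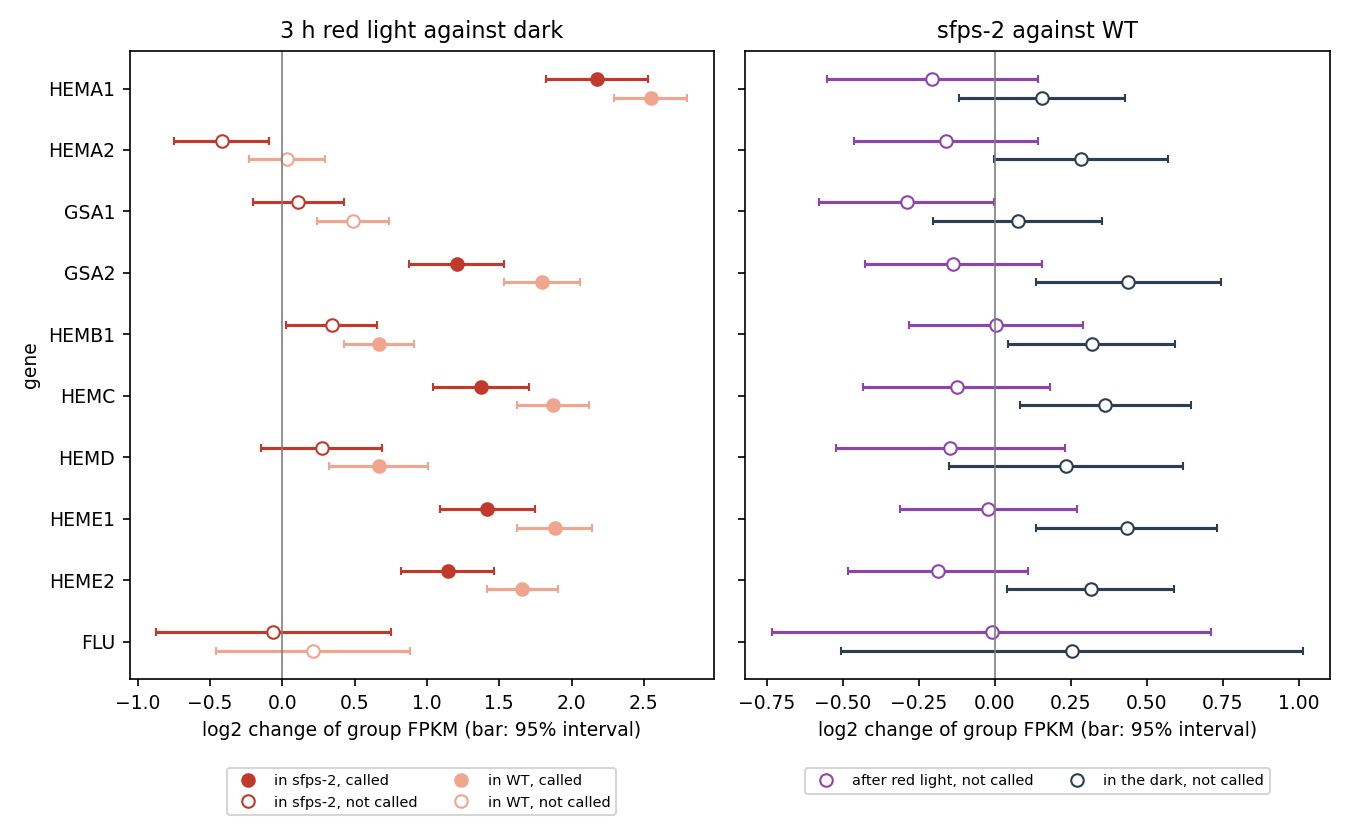
Log2 change of group FPKM with its 95% interval for the 10 genes, for red light against dark (left, in sfps-2 and in WT) and for sfps-2 against WT (right, after red light and in the dark). Filled points were called and open points were not: 5 genes are filled in sfps-2 and 7 in WT on the left, and 0 on the right, where the dark values lie above 0 for all 10.

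The difference between the light responses was tested directly. The log2 change after red light was smaller in sfps-2 than in WT for all 10 genes, by a median of -0.42, where 56.9% of the 20420 genes tested had a smaller change in sfps-2. No gene of the set had an adjusted p under 0.05 in the normal test with Benjamini-Hochberg adjustment over all genes, where 4.58% of genes had a change called lower in sfps-2. The lowest adjusted p was that of GSA2, with a difference of -0.59 (95% interval -1.01 to -0.17, adjusted p = 0.0905), followed by HEME2 at -0.52 (-0.92 to -0.11, adjusted p = 0.149) and HEMC at -0.49 (-0.91 to -0.08, adjusted p = 0.211). This order depends on the error setting: with the error taken from the p-value alone the adjusted p is 1.000 for GSA2, HEME2 and HEMC and lowest for HEMA2 (0.476), and with the statistic alone it is 1.000 for all 10 genes. Both settings enlarge the error of genes at the lowest p of the authors' tables, as GSA2, HEME2 and HEMC are, so they could not strengthen these differences. With the error used here an unadjusted p under 0.05 was found for 5 of the 10 genes, the other 2 being HEME1 at -0.47 and HEMA2 at -0.45, where 12.5% of all genes tested had 1. HEMA1 differed by -0.37 (-0.80 to 0.06, adjusted p = 0.578) and FLU by -0.27 (-1.33 to 0.78). For HEMB1 and HEMD, called in WT alone, the difference was -0.33 (adjusted p = 0.624) and -0.39 (adjusted p = 0.759). The direction was common among light-induced genes: of the 3052 genes called higher in WT and tested in both genotypes, 83.6% had a smaller change in sfps-2, with a median difference of -0.37. These genes were selected on the WT change, so their share is given as a description.

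The genes that follow these enzymes were taken as a list of 29 genes of the later and side branches of tetrapyrrole synthesis. In the light comparison 14 were called higher and 1 lower of 25 tested in sfps-2, and 18 higher and 1 lower of 26 tested in WT. Over all genes tested 12.4% were called higher and 8.97% lower in sfps-2, and 14.9% higher and 5.85% lower in WT. CHLH, a subunit of magnesium chelatase, which commits the pathway to chlorophyll, stood at 568 FPKM in sfps-2 after red light against 47.0 FPKM in the dark, and at 586 FPKM in WT after red light against 28.9 FPKM in the dark. The gene called lower in both was PORA, the protochlorophyllide reductase of dark-grown seedlings, at 37.3 FPKM in sfps-2 after red light against 282 FPKM in the dark, and at 33.9 FPKM in WT after red light against 173 FPKM in the dark. In sfps-2 against WT, 1 was called lower and 0 higher in red light, where 3.23% of all genes tested were called lower and 3.28% higher. It was DVR, the divinyl reductase, at 25.6 FPKM in sfps-2 and 39.6 FPKM in WT. In the dark 6 of the list were called higher and 0 lower, against 5.22% higher and 1.99% lower of all genes tested. Among these 6 was the chelatase activator GUN4 at 21.8 FPKM in sfps-2 and 12.2 FPKM in WT (log2 change 0.84).

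Proteins that feed or control glutamyl-tRNA reductase made a list of 5 genes. After red light 2 of 5 were called higher in sfps-2 and 4 of 5 in WT, with 0 lower in both, where 12.4% and 14.9% of all genes tested were called higher. SRP43, a chaperone that protects the reductase, stood at 62.3 FPKM in sfps-2 after red light against 17.3 FPKM in the dark, and at 70.4 FPKM in WT after red light against 11.0 FPKM in the dark. GBP, which anchors the reductase at the thylakoid membrane, rose by a log2 change of 0.80 in sfps-2 and 0.97 in WT. In sfps-2 against WT 0 of 5 were called after red light, and in the dark SRP43 was called higher, at 17.03 FPKM in sfps-2 and 11.3 FPKM in WT. In that dark comparison 5.22% of all genes tested were called higher. Among 7 transcription factor genes known to act on chlorophyll genes, 5 were called higher after red light in sfps-2 and 6 in WT, against 12.4% and 14.9% of all genes tested. CGA1, a GATA factor, stood at 16.6 FPKM in sfps-2 after red light against 0.772 FPKM in the dark, and at 12.1 FPKM in WT after red light against 0.229 FPKM in the dark. GLK2, an activator of photosynthesis genes, stood at 92.4 FPKM in sfps-2 after red light against 30.4 FPKM in the dark, and at 117 FPKM in WT after red light against 26.5 FPKM in the dark.

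Among 17768 genes tested in all 4 tables with at least 1 FPKM in every group value, the gene nearest to HEMA1 over the 4 log2 changes was AT3G44630, at a Euclidean distance of 0.133. AT2G41120 (0.140), CH1, the chlorophyllide a oxygenase that makes chlorophyll b (0.147), AT1G29700 (0.175) and PSY, the phytoene synthase of carotenoid synthesis (0.231), came next, and the median gene lay at 3.42. Within the set HEME1 was nearest to HEMA1, at 1.06 and rank 376. The genes nearest to FLU were AT2G32970 (0.0219), NUDX14 (0.0365), CPK29 (0.0400), COBL1 (0.0407) and LDL2 (0.0420), where the median gene lay at 0.661. The 4 log2 changes share their groups, so these distances are descriptions.

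The promoters of 9 genes of the set were searched because 5 of the genes rose together in both genotypes. In the 250 bases before each RefSeq gene start on TAIR10.1, both strands were searched for 5 motifs. CACGTG (the G-box) was found in 6.49% of 27443 promoters and in 0 of the 9 genes, and CACATG or CATGTG (the PBE-box) in 11.1% and in 0 of the 9. The GLK-type motif CCAATC was found in 10.2% and in 1 of the 9, the I-box GATAAG in 12.3% and in 0, and the evening element AAATATCT in 4.79% and in 0. The promoters shown are those of HEMA1, the most light-induced member, at chr1:21626403-21626652 on the minus strand, and of GSA2, with the largest value of the difference in light response between the genotypes (-0.59, not past the threshold), at chr3:18049321-18049570 on the plus strand. Capitals mark the match in GSA2, GATTGG, which is CCAATC on the other strand. HEMA1 has no match in this window.
HEMA1 promoter: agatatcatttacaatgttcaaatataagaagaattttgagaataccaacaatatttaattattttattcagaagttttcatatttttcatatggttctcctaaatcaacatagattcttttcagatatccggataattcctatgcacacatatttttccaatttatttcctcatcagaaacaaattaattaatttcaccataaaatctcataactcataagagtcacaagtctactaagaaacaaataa
GSA2 promoter: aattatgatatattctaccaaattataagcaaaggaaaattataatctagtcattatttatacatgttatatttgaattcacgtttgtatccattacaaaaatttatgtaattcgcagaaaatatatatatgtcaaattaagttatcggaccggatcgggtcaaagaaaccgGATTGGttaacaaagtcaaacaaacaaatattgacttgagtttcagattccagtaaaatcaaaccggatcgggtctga

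The window depends on the gene start. In the deposited tables the locus of HEMA1 starts 202 bases inside the RefSeq start, and the 250 bases before that point hold 2 matches to CCAATC or its complement. With the deposited starts 1 match to GATAAG or its complement is found before GSA1 and 1 before HEME2, and the GSA2 match remains. No share over all promoters was computed for the deposited starts, so these matches stand without a background. A match is a description of letters, and the absence of a match says only that these letters are not in the window.

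Splicing was measured from reads that cross the boundaries of an intron unspliced and from reads that join its flanking exons. The retention share is the number of boundary reads over that number plus 2 times the spliced reads. The authors list events past an FDR of 0.05 and a change of 3 points, and events below these limits were not analysed here. In sfps-2 against WT, 1 of the 10 genes had a listed event after red light and 1 in the dark, where 3.92% and 3.75% of genes tested had 1. For red light against dark it was 1 gene in sfps-2 and 3 genes in WT, where 1.92% and 2.92% of genes had 1. The genes were HEME1 in all 4 comparisons, and HEMC and HEME2 in WT. No event of HEMA1, HEMA2, GSA1, GSA2, HEMB1, HEMD or FLU was listed in the 4 sheets.

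The intron of HEME1 that changed in 3 of the 4 comparisons lies behind the coding region. It spans chr3:5022584-5022665 on TAIR10, 82 bases on the plus strand, and begins 6 bases after the stop codon, so its retention leaves the coding sequence as it is. RefSeq has it spliced in 2 transcripts of HEME1 and retained in 1. Its splice sites are shown with the first and last 2 bases of the intron in capitals.
HEME1 5′ site of the intron after the stop codon: atgGTgact
HEME1 3′ site of the intron after the stop codon: taaacttggtgcAGgaa

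By the frequencies of bases at 133326 RefSeq introns, the 5′ site scored above 23.0% of introns and the 3′ site above 54.0%. Its G+C content of 40.2% was above that of 96.0% of introns, and 15.6% of introns are shorter.

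After red light the retention share of this HEME1 intron was 39.0%, 43.9% and 32.0% in the sfps-2 libraries, against 55.2%, 54.6% and 53.8% in the WT libraries. In the dark the shares were 27.7%, 20.1% and 17.6% in sfps-2, against 35.4%, 37.5% and 38.0% in WT. All sfps-2 libraries lay below all WT libraries of the same light, and all red light libraries lay above all dark libraries of the same genotype. The group means were 38.3% ± 6.0 in sfps-2 and 54.5% ± 0.71 in WT after red light, and 21.8% ± 5.3 in sfps-2 and 37.0% ± 1.4 in WT in the dark (SD, n = 3 each). They rest on 3064 reads in sfps-2 and 2955 in WT after red light, and on 933 in sfps-2 and 812 in WT in the dark.

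The authors list the difference after red light (FDR = 3.55e-04) and the light response in sfps-2 (FDR = 5.91e-05) and in WT (FDR = 7.63e-05). The difference of -15.2 points in the dark is not among the listed events. An exact two-sided permutation test of sfps-2 against WT within both lights gave a difference of -15.7 points with p = 0.005, the smallest p it allows, and an adjusted p of 0.024 over 24 contrasts of this intron. Red light against dark within both genotypes gave 17.03 points, again with exact permutation p = 0.005 and adjusted p = 0.024. Within a single light or genotype the exact test with 3 libraries against 3 cannot go below 0.1. These tests were chosen after the values were seen, on an event already listed.

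In a limma fit on the log2 odds of retention over the 581 bins listed for all 12 libraries, sfps-2 lay below WT by -0.95 after red light (95% interval -1.48 to -0.43, adjusted p = 0.00469) and by -1.09 in the dark (-1.62 to -0.57, adjusted p = 0.00210), where 66.8% and 69% of these bins were called. Red light raised the log2 odds by 1.17 in sfps-2 (0.64 to 1.69, adjusted p = 0.00496) and by 1.03 in WT (0.50 to 1.55, adjusted p = 0.00772), where 26.9% and 26.3% of bins were called. The light response differed between sfps-2 and WT by 0.14 (-0.60 to 0.88, adjusted p = 0.979), and limma called 0 of the 581 bins for that difference, with the same count in the 4 alternative fits, while 27 bins had an unadjusted p under 0.05. Each of these bins is listed for sfps-2 against WT in both lights, or for light in both genotypes, as the HEME1 intron is. Events not listed in this way are left out, so few such differences could be found and no conclusion is drawn from this count. In separate limma fits over each sheet the adjusted p was 0.0106 for sfps-2 against WT after red light, 0.0239 for light in sfps-2 and 0.00857 for light in WT, where 83%, 70.4% and 64.3% of the listed events were called. The call for light in sfps-2 is lost without red replicate 1 (adjusted p = 0.0623) or 2 (0.0710) and without dark replicate 2 (0.0554) or 3 (0.0634). The 581 bins and the events of each sheet were already listed on the same libraries. Neither the fit over all 12 libraries nor the separate fits are independent of that listing, and their adjusted p covers listed events only. The retention share moved in light by 16.5 points in sfps-2 and 17.5 points in WT, while the share in sfps-2 was lower at both.

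Junction reads scaled to a common total over those 581 bins separated the spliced from the unspliced form. Spliced HEME1 reads at this intron numbered 543, 426 and 436 in sfps-2 and 254, 277 and 319 in WT after red light, and 156, 276 and 189 in sfps-2 against 94.9, 158 and 98.6 in WT in the dark. The sfps-2 libraries had more spliced reads, with no overlap after red light and with overlap in the dark as groups, and the mean was 1.71-fold higher over both lights (exact permutation p = 0.01, adjusted p = 0.04). In the dark, scaled reads of same-numbered libraries deviated together, and in all 3 pairs the sfps-2 library had more spliced reads than the WT library of its number (1.76-fold, paired exact permutation p = 0.25, the smallest that 3 pairs allow). With the dark libraries paired the difference over both lights had an exact permutation p of 0.0125. Unspliced reads numbered 348, 334 and 205 in sfps-2 and 313, 333 and 371 in WT after red light, and 59.5, 69.4 and 40.3 in sfps-2 against 52.1, 94.9 and 60.5 in WT in the dark. They overlapped between the genotypes in both lights, with a ratio of 0.837 (exact permutation p = 0.25). The 581 bins behind this scale are themselves listed for a change in splicing. On it all HEME1 reads at this intron were 1.22-fold in sfps-2 over WT after red light and 1.42-fold in the dark. By FPKM HEME1 was 0.985-fold after red light and 1.35-fold in the dark. The part of the scale in the split between spliced and unspliced reads was not tested. Red light against dark, over both genotypes, was 5.14-fold for unspliced and 2.39-fold for spliced reads (exact permutation p = 0.005 each, adjusted p = 0.024).

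**Figure D4:**
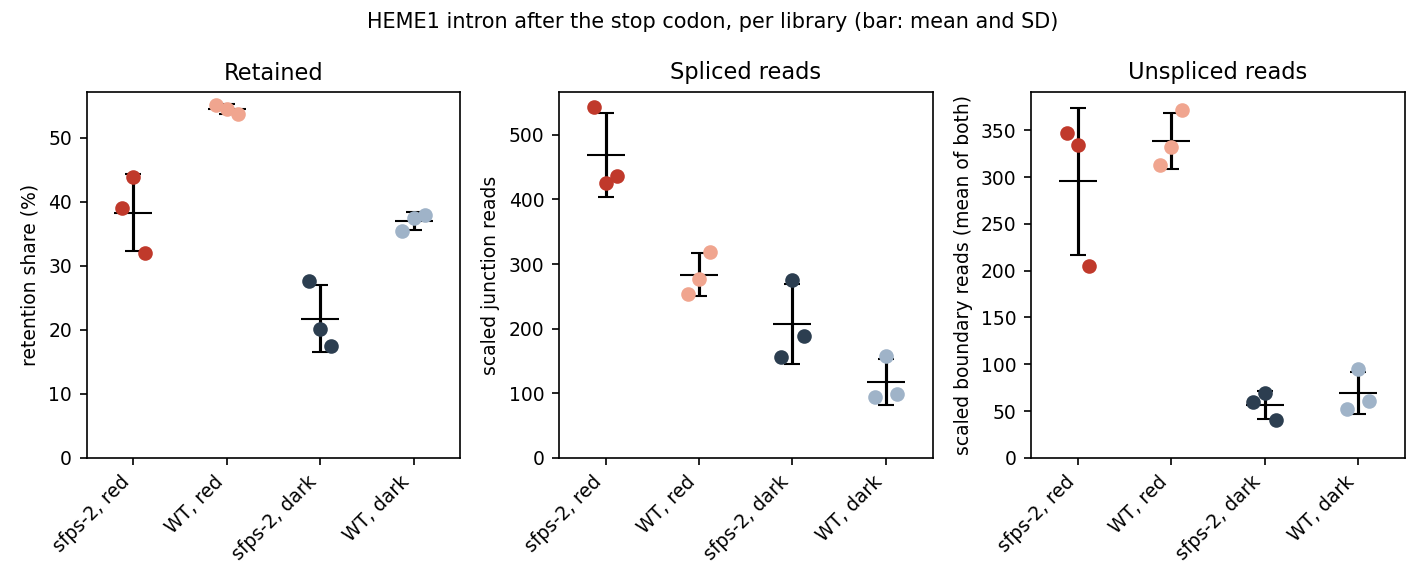
Per library values at the HEME1 intron behind the stop codon in sfps-2 red, WT red, sfps-2 dark and WT dark: retention share (%), scaled spliced reads and scaled unspliced reads, with the mean and SD as bars (n = 3 libraries each). The retention shares of sfps-2 lie below those of WT in both lights, 38.3% against 54.5% after red light and 21.8% against 37.0% in the dark, while the unspliced reads of the genotypes overlap.

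Dark replicate 2 had the highest scaled reads of HEME1 at this intron in both genotypes, 345 of a range of 215 to 345 in sfps-2 and 253 of a range of 147 to 253 in WT. Without it the difference in retention in the dark was -14.1 points and the light response 15.7 points in sfps-2 and 17.8 points in WT. Replicate 3 of sfps-2 after red light had the lowest retention of its group, and without it the difference after red light was -13.04 points.

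The authors list a second HEME1 event for sfps-2 against WT in the dark (FDR = 0.0268), in the first intron. HEME1 is annotated with alternative acceptors 4 bases apart at this intron, and the listed bin, chr3:5020698-5020779, counts as spliced only reads that use the upstream acceptor, found in 1 of 3 RefSeq transcripts. Joins to the downstream acceptor, found in 2 of 3, are not in its share, so the value is no retention share of the whole transcript. The intron is shown to the downstream acceptor, chr3:5020698-5020783 on the plus strand, with the first 2 bases and the last 2 bases before each acceptor in capitals.
HEME1 intron: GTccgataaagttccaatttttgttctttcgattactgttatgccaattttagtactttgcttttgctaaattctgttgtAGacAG

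With this denominator 29.2%, 12% and 17.6% were unspliced in the sfps-2 libraries in the dark, against 35.1%, 30.9% and 44.1% in the WT libraries. All sfps-2 libraries lay below all WT libraries, at 19.6% ± 8.7 and 36.7% ± 6.8 (SD, n = 3 each), but only 113 reads in sfps-2 and 179 in WT stand behind them. The scaled unspliced reads were 7.31, 4.25 and 7.01 in sfps-2 against 16.95, 12.05 and 15.2 in WT, while the spliced reads overlapped. In limma over the 972 events of the dark sheet, of which 81.3% were called, the log2 odds differed by -1.25 (adjusted p = 0.0300). That call is lost without sfps-2 replicate 2 (adjusted p = 0.0770) or 3 (0.0714) and without WT replicate 1 (0.0614) or 3 (0.0854). The event was already listed on these libraries, so this fit is no independent test of it.

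For HEMC and HEME2 the listed events were lower retention after red light in WT, and no event of either gene is listed for sfps-2, so the difference between the genotypes was not tested. The HEMC event is the first intron, inside the coding region at chr5:2664978-2665351 on the minus strand, 374 bases long. Its 5′ site scored above 90.0% of RefSeq introns and its 3′ site above only 2.52%. The sites are shown with the first and last 2 bases of the intron in capitals, beside the intron of HEME2.
HEMC 5′ site: aagGTaaaa
HEMC 3′ site: actatgtaggacAGtcc
HEME2 intron: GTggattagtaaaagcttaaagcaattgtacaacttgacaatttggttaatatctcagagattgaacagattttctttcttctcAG

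The HEME2 event is the last intron, inside the coding region at chr2:16914387-16914472 on the plus strand, 86 bases long. Its sites rank the other way round, with the 5′ site above 20.3% of introns and the 3′ site above 91.6%. Its G+C content of 31.4% is near the median of 32.7% over RefSeq introns.

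In WT the retention share of the HEMC intron was 4.04%, 4.54% and 4.43% after red light, against 7.69%, 7.63% and 7.60% in the dark. The groups did not overlap, and their means were 4.33% ± 0.26 and 7.64% ± 0.046 (SD, n = 3 each, authors' FDR = 4.19e-10). That of the HEME2 intron was 3.33%, 4.08% and 4.60% after red light, against 6.02%, 8.05% and 10.96% in the dark. These groups did not overlap either, with means of 4.00% ± 0.64 and 8.34% ± 2.5 (SD, n = 3 each, authors' FDR = 0.0161). The exact two-sided permutation p was 0.1 for both introns, the smallest that 3 libraries against 3 allow. In limma over the WT light sheet, where 64.3% of the listed events were called, the adjusted p was 0.0131 for HEMC and 0.0227 for HEME2. The HEME2 call is lost without red replicate 1 (adjusted p = 0.0711) or 2 (0.0560). Both events were already listed on the same libraries, so this fit is no independent test of them.

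Lower retention shares went with more reads of both forms. At the HEMC intron, spliced reads after red light were 3.93-fold and unspliced reads 2.15-fold those in the dark. At the HEME2 intron spliced reads were 3.33-fold and unspliced reads 1.56-fold those in the dark. In all 4 cases the red light libraries lay above the dark libraries without overlap (exact permutation p = 0.1 each). At the HEME1 intron behind the stop codon the order was the other way round, with unspliced reads in WT 5.05-fold and spliced reads 2.47-fold those in the dark.

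**Figure D5:**
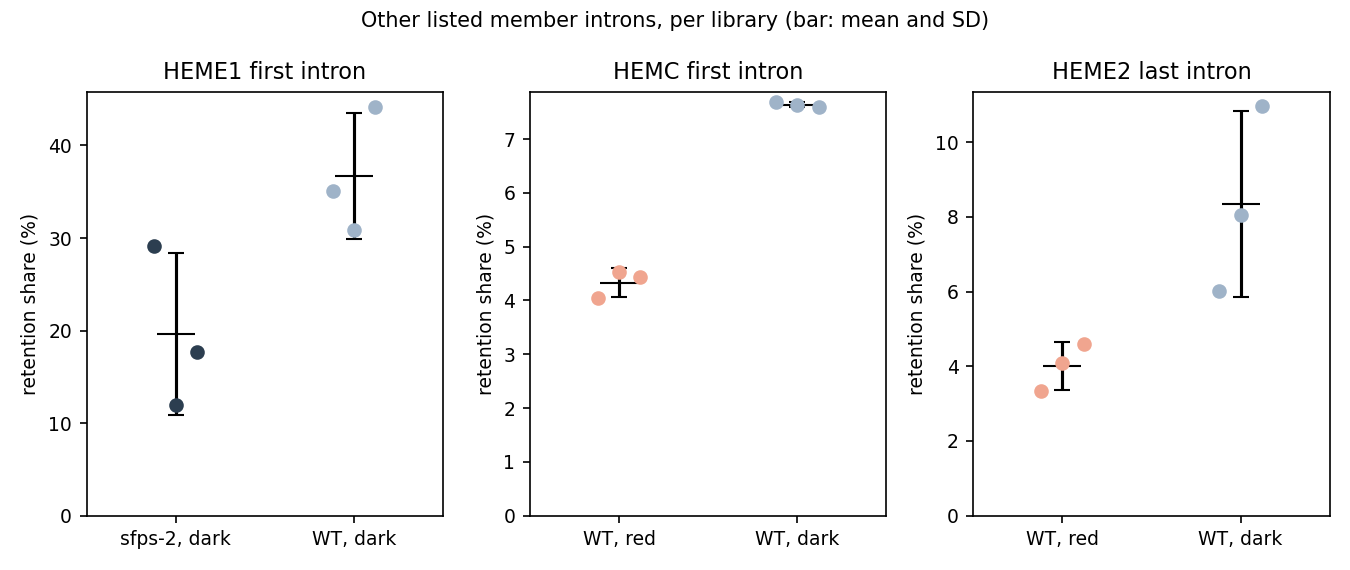
Retention share (%) per library at the other listed introns, with mean and SD as bars (n = 3 libraries each): HEME1 first intron in sfps-2 dark and WT dark, HEMC first intron and HEME2 last intron in WT red and WT dark. The left group lies below the right in each panel, at 19.6% against 36.7%, 4.33% against 7.64% and 4.00% against 8.34%. The HEME1 value counts as spliced only joins to the upstream acceptor, so it is no retention share of the whole transcript.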

How the data were processed

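Total RNA was depleted of ribosomal RNA and made into stranded libraries, per the labels' protocols. Per the submitters' processing notes and the series' design text, FastQC, TopHat2, Cufflinks and ASpli were used with TAIR10. Versions and settings are not given in the sources used here. The deposited FPKM are values per group, scaled by the authors in each table separately, and the same group's FPKM in 2 tables differed by a median of 0.879% to 2.14%. The deposited p-values and q-values come from Cuffdiff, and its statistic was used as a deposited score. For splicing, the authors deposited counts of junction reads in every library, the authors' retention fraction per group, and the authors' log2 change, which was not used for tests. Of per-sample columns, 0 were left unmapped.

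Log2 changes, retention shares and tests were computed here with Python 3.11.15, scipy 1.17.1, R 4.3.3 and limma 3.58.1, after tests on simulated data. The error of a log2 change is its size over the Cuffdiff statistic, times the median factor between the statistic and the deviate of its p on a normal scale (0.578 to 0.579), an extrapolation for genes at the lowest p. For limma 0.5 was added to each read number. Total depth per library is unknown. Levels come from the table of the comparison they stand with, those of the 10 genes from the light tables.

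Listed introns matched RefSeq introns in 97.7% to 98.6% of intron bins, and sequences and annotation are from RefSeq TAIR10.1. Splice sites were scored by summed log2 odds over 9 bases at the 5′ and 17 at the 3′ site. All 10 members were named, and from each list up to 2 of the genes with the largest change in a comparison. PORA was also named as the gene behind a count of 1. The genes, lists and tests were chosen with earlier results of these data known. Alternatives varied the call rule, pseudocount, centring, filter, table, libraries, replicate block and added reads. A withheld item among the promoters is not reported here. The planned comparison of paralogue protein sequences was not made.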

Additional observations from a re-analysis of the deposited data

How the results depend on the processing

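Under alternative call rules, pseudocount, centring, filters and tables, 231 of 240 member log2 changes kept their direction and call. Part of this count was fixed in advance. The call rules left the log2 changes as they were, and q stayed that of the authors throughout. The filter at 1 FPKM could change nothing, since the lowest level was 5.70 FPKM (HEMD, WT in the dark). With q under 0.05 alone 1 gene was called for sfps-2 against WT in the dark (HEME1, log2 change 0.43), and GSA1 in WT and HEMA2 in sfps-2 passed for red light. For sfps-2 against WT after red light, FLU reversed to 0.0086 after centring on the median gene and to 0.033 from the other tables' group values, and HEME1 to 0.023 from those values. The cause was not tested. With both other error settings and with a filter at 1 FPKM 0 of the 10 genes were called for the difference in light response, and the lowest adjusted p among the 10 was 0.476 (HEMA2, error from the p-value alone), 1.000 (statistic alone) and 0.103 (GSA2, filter). The statistic alone enlarges every error, so it could add no call. The p-value alone enlarges the error of genes at the lowest p of the authors' tables. HEMA1, GSA2, HEMC, HEME1 and HEME2 are at that p in both genotypes, so this setting weighed against a call for them. Of the retention differences all 42 alternatives kept their direction. That was fixed in advance, because the groups of each listed event did not overlap and the alternatives only summed reads or left out a library. In the sheet for changes of 10 points 1 of the 3 WT light events was listed, that of HEME1. Leaving out a library changed the number of member events that limma called between 0 and 1 for sfps-2 against WT in the dark and between 0 and 1 for red light in sfps-2 (lowest without sfps-2 red replicates 1 or 2 or dark replicates 2 or 3). Same-numbered libraries did not deviate together in the log2 odds of the 581 bins (r between -0.0777 and 0.214), so numbers were not taken as pairs for retention. In scaled junction reads they did so between the dark groups (r between 0.186 and 0.320) and not in the other 3 comparisons. With the dark libraries paired, chosen after seeing the data, the log2 difference of spliced HEME1 reads stayed 0.82 in the dark and 0.77 over both lights, with the same calls. With the replicate block the adjusted p was 0.0321 for the first intron of HEME1, 0.0216, 0.0306 and 0.0361 for its intron behind the stop codon, 0.0390 for HEMC and 0.0290 for HEME2, with every call kept. Group FPKM without library values limit the expression tests to the authors' own.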
